A study of Mus musculus with 3 samples.

Results

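Interferon-responding keratinocytes were cells of mouse dorsal skin that carried keratinocyte transcripts together with transcripts of several interferon-induced genes. A cell was counted as one when it held at least 10 UMIs (unique molecular identifiers, each standing for 1 captured transcript) of Krt5 and Krt14 together, at least 1 UMI in at least 3 of the 5 genes Iigp1, Gbp2, Isg15, Ifi47 and Cxcl9, and no UMI of Ptprc, the pan-leukocyte gene that encodes CD45. The rule was met by 285 of the 20569 Ptprc-negative Krt5/Krt14 keratinocytes, which were themselves part of the 26847 cells of 3 libraries that passed the filters on mitochondrial transcripts and detected genes. The cells they were set against, called comparison keratinocytes below, met the same Krt5/Krt14 and Ptprc limits and held no UMI of any of the 5 genes, and there were 17257 of them. The cells were thus selected on the UMIs of the 5 genes, Krt5, Krt14 and Ptprc. For that reason the levels of these genes, and of every other gene in these cells against the comparison keratinocytes, are given as descriptions and were not tested.

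The study profiled whole skin of female C3H/HeN mice, 25 weeks old, with 10x single-cell RNA libraries. The library Neg came from unaffected mice, labelled as a negative control with vehicle. The library AA came from a model of alopecia areata, an autoimmune loss of hair that was induced by transfer of lymph node cells from affected donors. For the library AA+Ab such mice were given an antibody against the chemokine CXCL12 to block its action, at a dose and time not given in the sources used here. Each library pooled the skin of 7 to 8 mice, so that mice could not be told apart, and the cells had passed enzymatic digestion and a density gradient, which limits how far shares of cells stand for the tissue. With 1 library per group no difference between groups could be tested against the spread between mice. All intervals below are exact 95% intervals that cover counting error only.

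Interferons are cytokines that bind receptors on neighbouring cells and act through the JAK kinases and STAT transcription factors. Type II interferon (interferon gamma), made mostly by T cells and natural killer cells, induces GTPases of the IRG and GBP families, antigen presentation through MHC class I and II, and the T cell-attracting chemokines Cxcl9 and Cxcl10, whereas type I interferon induces chiefly antiviral genes such as Isg15 and the Ifit family. The hair follicle epithelium normally presents little MHC class I, a part of what is called its immune privilege, and loss of that state is a known feature of alopecia areata.

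Interferon-responding keratinocytes numbered 6 of 5084 Krt5/Krt14 keratinocytes in Neg, 250 of 8176 in AA and 29 of 7309 in AA+Ab. These counts were 0.118% (0.0433 to 0.257), 3.06% (2.70 to 3.45) and 0.397% (0.266 to 0.569) of the keratinocytes by the exact Clopper-Pearson method. At full depth the intervals of the 3 libraries did not overlap. The share in AA was 25.9 times that in Neg (11.7 to 71.3), and the share in AA+Ab was 0.130 times that in AA (0.0851 to 0.191). The share in AA+Ab was still 3.36 times that in Neg (1.37 to 9.90). With cells that carry an immune marker UMI left out, 2 cells remained in Neg and 179 in AA, and the log2 ratio of the shares was 5.66 (3.78 to 8.71) beside 4.70. The median keratinocyte held 14325.5 UMIs in Neg, 11732 in AA and 11923 in AA+Ab. When every keratinocyte was thinned to 3000 UMIs, with 49, 111 and 113 shallower cells left out, the rule found 1, 73 and 8 cells. These were 0.0199% (0.000503 to 0.111), 0.905% (0.710 to 1.14) and 0.111% (0.0480 to 0.219). After thinning, the intervals of Neg and AA+Ab overlapped, and that of AA lay above both.

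**Figure D1:**
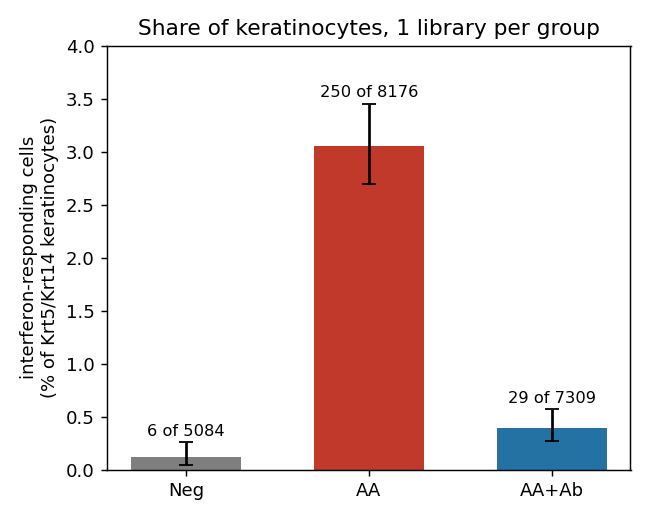
Share of Krt5/Krt14 keratinocytes (y axis, percent) that met the rule in each library (x axis), with 1 library per group. Bars are shares, whiskers are exact 95% Clopper-Pearson intervals of counting error, and the numbers above them give the cells; AA stands at 3.06%, above both other libraries.

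The 5 genes were present in different proportions of the cells. In AA, Iigp1, an IRG GTPase, was detected in 94.4% of the interferon-responding keratinocytes, Gbp2, a GBP GTPase, in 88.4%, the ubiquitin-like antiviral modifier Isg15 in 78.8% and the IRG GTPase Ifi47 in 72.4%. Cxcl9 was detected in only 41 of the 250 cells, or 16.4%. The combination of Iigp1, Gbp2, Isg15 and Ifi47 without Cxcl9 was the most frequent, with 82 cells. The summed UMIs of the 250 cells gave 885 CPM (UMIs per 1000000 summed UMIs) of Iigp1, 209 of Gbp2, 261 of Isg15, 111 of Ifi47 and 426 of Cxcl9. In the 29 cells of AA+Ab the levels were 633, 224, 236, 80.7 and 230 CPM. Cxcl9 was detected in 27.6% of the cells of AA+Ab, where 1 cell held 57 of its 114 UMIs. Since these genes selected the cells in both libraries, no comparison of their levels is drawn.

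The chemokine Cxcl9 came from few cells. In AA, 7 cells held 85.2% of its UMIs and 1 cell held 529 UMIs. The 17 interferon-responding keratinocytes of AA with at least 10 Cxcl9 UMIs were 6.80% of these cells and carried 10.4% of their total UMIs, but they held 78.1% of the UMIs of Cxcl10, the related chemokine, 90.1% of those of the ubiquitin-like modifier Ubd and 82.5% of those of the monocyte chemoattractant Ccl2. The same cells held 8.81% of the UMIs of Iigp1, 17.6% of those of the MHC class II invariant chain Cd74 and 17.7% of those of the chemokine Ccl8. Transcripts of Cxcl9, Cxcl10, Ubd and Ccl2 were thus concentrated in a small part of these cells, and those of Iigp1 were not.

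Part of the UMIs of the 5 genes lay in keratinocytes that did not meet the rule. In AA the interferon-responding cells made up 3.06% of the keratinocytes and 3.66% of their UMIs, and held 61.0% of the UMIs of Iigp1, 44.5% of Gbp2, 51.7% of Isg15, 66.1% of Ifi47 and 90.9% of Cxcl9. The rule itself raises these shares. The same cells held 51.1% of the UMIs of Cd74 and 44.1% of those of the checkpoint ligand Cd274, which the rule did not use by name. For the MHC class I light chain B2m the share was 7.12%.

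The promoters of genes that describe these cells are given here because 2 DNA motifs mark targets of interferon signalling: the interferon-stimulated response element (ISRE), bound by IRF proteins among others, and the gamma-activated site (GAS), through which interferon gamma acts. The ISRE core was searched as GAAANNGAAA on either strand and the GAS as TTCNNNGAA, which reads the same on both strands, in the 250 bases before the transcription start in RefSeq (build GRCm38.p6, the build of the count tables). Matches are in capitals, sequences run 5′ to 3′ on the strand of the gene, and adjacent or overlapping matches appear as 1 run.
Gbp2 (chr3:142620413-142620662, plus strand): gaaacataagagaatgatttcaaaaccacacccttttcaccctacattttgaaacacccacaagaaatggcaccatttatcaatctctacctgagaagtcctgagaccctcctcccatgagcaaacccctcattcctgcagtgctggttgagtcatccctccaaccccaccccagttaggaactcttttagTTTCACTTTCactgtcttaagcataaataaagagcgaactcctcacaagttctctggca
Isg15 (chr4:156200819-156201068, minus strand): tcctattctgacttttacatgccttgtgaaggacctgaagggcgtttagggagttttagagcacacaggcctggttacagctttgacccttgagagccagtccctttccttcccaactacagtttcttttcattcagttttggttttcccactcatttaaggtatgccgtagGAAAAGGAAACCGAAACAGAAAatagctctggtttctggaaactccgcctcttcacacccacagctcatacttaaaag
Ifi47 (chr11:49076337-49076586, plus strand): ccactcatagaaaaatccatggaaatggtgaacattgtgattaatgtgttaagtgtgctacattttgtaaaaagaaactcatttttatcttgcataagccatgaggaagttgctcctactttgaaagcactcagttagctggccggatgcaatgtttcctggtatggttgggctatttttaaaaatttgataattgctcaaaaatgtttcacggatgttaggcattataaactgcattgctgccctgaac
Cxcl9 (chr5:92328080-92328329, minus strand): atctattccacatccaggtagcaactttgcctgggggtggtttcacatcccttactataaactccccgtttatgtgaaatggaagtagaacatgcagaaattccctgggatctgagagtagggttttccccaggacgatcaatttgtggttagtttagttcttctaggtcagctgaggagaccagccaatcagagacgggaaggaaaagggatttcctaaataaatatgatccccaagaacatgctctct
Igtp (chr11:58199306-58199555, plus strand): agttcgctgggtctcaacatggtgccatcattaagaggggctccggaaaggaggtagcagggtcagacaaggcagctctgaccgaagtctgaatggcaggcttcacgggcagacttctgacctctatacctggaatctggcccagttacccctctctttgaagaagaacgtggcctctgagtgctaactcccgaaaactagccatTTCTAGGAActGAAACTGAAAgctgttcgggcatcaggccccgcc
Cxcl10 (chr5:92348890-92349139, minus strand): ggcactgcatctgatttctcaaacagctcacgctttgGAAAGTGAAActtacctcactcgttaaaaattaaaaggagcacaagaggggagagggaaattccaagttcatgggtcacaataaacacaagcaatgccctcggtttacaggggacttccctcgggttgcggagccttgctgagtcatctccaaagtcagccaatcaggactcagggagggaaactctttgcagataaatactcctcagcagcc
B2m (chr2:122147437-122147686, plus strand): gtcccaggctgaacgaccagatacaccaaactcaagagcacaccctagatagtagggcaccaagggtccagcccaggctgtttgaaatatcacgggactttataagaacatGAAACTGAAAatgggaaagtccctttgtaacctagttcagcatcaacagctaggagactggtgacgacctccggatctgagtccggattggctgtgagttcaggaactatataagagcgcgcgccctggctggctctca

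The window of Gbp2 held 1 ISRE core, which began 59 bases before the start, and that of Isg15 held 3 overlapping ones that began between 78 and 66 bases before it. The window of Igtp, an IRG GTPase that is not among the 5 genes, held both motifs, with the ISRE core 34 bases and the GAS 45 bases before the start. An ISRE core also lay 139 bases before the start of B2m and 213 bases before that of Cxcl10. No match of either motif was found in these windows of Ifi47 and Cxcl9, which says only that these letters were not there. An ISRE core was present in 2.98% of all 32851 promoter windows, and in the windows of 3.46% of the 27025 genes that had one. By list, it was found in 9 of the 10 IRG and GBP GTPases of 19 listed that had a window, 9 of 22 antiviral genes, 3 of 19 genes of MHC class I presentation, 1 of 8 of MHC class II and none of 5 matched genes of basal keratinocytes. A GAS was found in 6 of the 10 GTPases and in 8.13% of all genes. It was also found in 6 of 22 antiviral genes, 1 of 19 genes of MHC class I presentation and 1 of 8 of MHC class II. Lists of other kinds held it too, with 3 of 7 matched genes of T and natural killer cells and 2 of 9 of the hair matrix, inner root sheath and shaft.

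The keratinocyte label held for most of these cells. In AA, Dsp, a desmosomal plaque protein, was detected in 98.4% of the interferon-responding cells, the desmosomal gene Perp in 99.2% and the epidermal transcription factor Trp63 in 96.4%. Their levels were 1.04, 0.949 and 0.953 times those of the comparison keratinocytes. The cells held a median of 208 UMIs of Krt5 and Krt14 together, with a lowest value of 14, and the comparison keratinocytes held a median of 120. In AA, 3 cells carried 10 or more UMIs of fibroblast collagens, 731 of their 1023 UMIs in 1 cell, and another single cell held 95.1% of the UMIs of the melanocyte gene Dct. Among the 6 cells of Neg, 1 carried 87 UMIs of Krt8, 96 of Krt18 and 967 of Wfdc18 beside 37 of Krt5 and Krt14, which goes against the label, and 1 carried 51 UMIs of fibroblast collagens. Without these cells and the cell with Dct, fibroblast genes summed to 145 CPM in the interferon-responding cells of AA, and to 535 CPM with them, beside 250.1 CPM in the comparison keratinocytes. Levels in the 6 cells of Neg are therefore not described further. A simulated-doublet score marked 1, 22 and 5 of the cells in Neg, AA and AA+Ab.

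At least 1 UMI of the markers of T, natural killer, myeloid, Langerhans and B cells was found in 28.4% (22.9 to 34.4) of the interferon-responding cells of AA and in 21.1% (20.1 to 22.1) of the comparison keratinocytes, and in AA+Ab in 31.0% against 25.1%. The 12 genes of T and natural killer cells summed to 24.9 CPM (20.3 to 30.1) in the interferon-responding cells of AA and to 18.1 CPM (17.2 to 19.0) in the comparison keratinocytes, and 2 of them were at 0 in the former. The 11 genes of myeloid, Langerhans and B cells summed to 4.26 CPM (2.53 to 6.74) and 5.37 CPM (4.89 to 5.89), again with 2 genes at 0. Of the 6 myeloid and Langerhans cell genes Lyz2, Csf1r, Adgre1, Cd209a, Cd207 and Itgax, 1 UMI each was found in 6 of 250 cells, or 2.40%, against 2.18% of the comparison keratinocytes. No such UMI was found in the 29 cells of AA+Ab, a count that allows a share of up to 11.9%. The 12 genes of T and natural killer cells summed in AA+Ab to 44.4 CPM (27.8 to 67.2), where Cd3e had 11 UMIs in 2 cells, against 27.6 (26.6 to 28.7) in its comparison keratinocytes. The part of these transcripts in the results below was not tested.

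The GTPases of the IRG and GBP families, which attack the vacuoles of intracellular pathogens, were among the genes with the highest ratios. Genes were called when their CPM in the summed interferon-responding cells was at least 2 times, or at most 1/2, that of the comparison keratinocytes, with at least 20 UMIs in the 2 sums added together. In AA, 7.33% of the 16015 genes that could be called were higher and 6.0% were lower, and this contrast is the one that chose the cells, so nothing is read from the counts that follow. With at least 5 UMIs expected in the smaller sum, a limit chosen after seeing the data, these shares were 4.28% and 4.75% of 12643 genes. Of the 15 GTPases that the rule did not use and that were in the files, 14 could be called and were higher, but only 9 of them met the stricter limit. A gene that is high in the selected cells passes either limit more readily, so these counts describe the list and support nothing. Igtp stood at 115 CPM against 2.80 (ratio 41.2, 35.2 to 48.3), Irgm1 at 81.7 against 3.55 (22.99, 19.6 to 26.9) and Gbp7 at 130 against 4.78 (27.2, 23.9 to 31.0). Gm4951, a further IRG gene, stood at 49.5 against 0.142 CPM. Several of these genes have near-identical copies or overlap a neighbour (Gbp6 and Gbp10, Tgtp1 and Tgtp2, Igtp and Irgm2, Ifi47 and Olfr56), so that the split of reads between them is uncertain.

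Of the interferon receptor and JAK-STAT genes, 8 of 21 were higher and none was lower, and the receptors themselves were not among those called. Ifngr1, which encodes the ligand-binding chain of the interferon gamma receptor, stood at 134 CPM against 191 (ratio 0.702, 0.645 to 0.764), Ifngr2 at 25.6 against 15.9 and Ifnar1 at 19.7 against 17.6. The kinase Jak1 had a ratio of 1.36. Downstream of them, Stat2 had a ratio of 6.06, Irf1 stood at 264 against 60.3 (4.37, 4.09 to 4.67), Irf7 at 59.4 against 2.44 and Irf9 had a ratio of 3.76. The feedback inhibitors Socs1 and Usp18 had ratios of 3.21 and 3.77, while Socs3 had a ratio of 0.706.

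**Figure D2:**
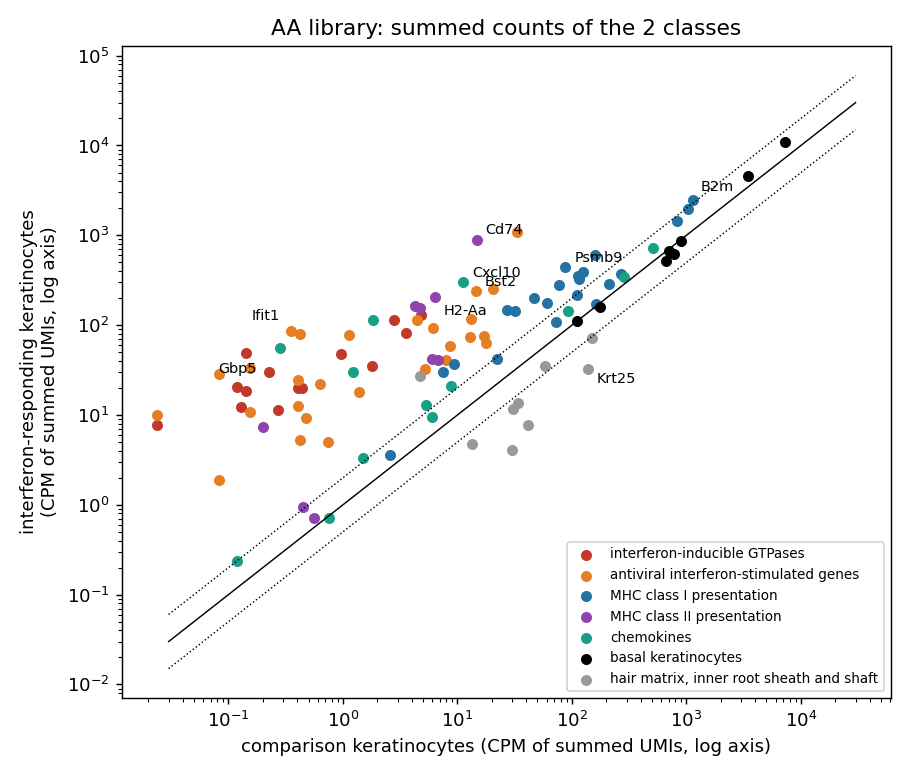
CPM of summed UMIs in the 250 interferon-responding keratinocytes (y axis, log scale) against the 6225 comparison keratinocytes (x axis, log scale) of the AA library, 1 point per gene with UMIs in both, coloured by gene list. The solid line marks equal levels and the dotted lines 2-fold; the GTPases and antiviral genes lie far above it, genes of MHC class I presentation lie nearer, basal keratinocyte genes lie along it and most hair matrix and inner root sheath genes lie below.

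Of the 27 antiviral interferon-stimulated genes in the files that the rule did not use, 26 could be called in AA and were higher, and 20 of these met the stricter limit. Ifi27l2a, a small mitochondrial membrane protein, was the most abundant with 1097 CPM against 33.0 (33.3, 31.8 to 34.9) and was detected in 84.4% of the cells. Bst2, which tethers budding viruses to the cell surface, stood at 240 CPM against 14.4 (16.7, 15.3 to 18.1). Oasl2, of the oligoadenylate synthetase family, had a ratio of 25.8, Ifit1, which binds viral RNA, one of 243 (167 to 365) and Rtp4 one of 68.7 (54.6 to 87.2). Rsad2, an antiviral enzyme, had 139 UMIs in 12.4% of the cells against 13 UMIs in all comparison keratinocytes.

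Genes of MHC class I presentation were higher by smaller ratios and from a higher base. Of 22 genes, all of which met the stricter limit, 13 were called higher and none lower, and the median ratio was 2.89 beside 0.942 over all genes. B2m stood at 2441 CPM against 1149.6 (2.12, 2.08 to 2.17), the heavy chain H2-K1 at 1958 against 1039.6 (1.88, 1.84 to 1.93) and H2-D1 at 1429 against 829 (1.72, 1.68 to 1.77). The immunoproteasome subunits Psmb8 and Psmb9 had ratios of 3.76 (3.60 to 3.92) and 5.06 (4.80 to 5.32), and the peptide transporter Tap1 one of 2.95 (2.73 to 3.18). Per cell, B2m ranged from 2.82 to 67.7 UMIs per 10000 with a median of 24.4, against 0 to 59.4 with a median of 13.8 in the comparison keratinocytes, so the classes overlapped. The class I transactivator Nlrc5 had a ratio of 1.94 and the chaperone Canx one of 1.05.

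Genes of MHC class II, which usually mark professional antigen-presenting cells, were present in part of the cells. Of 11 genes in the files, 9 could be called and 8 were higher, and the 6 that met the stricter limit were among these 8. Cd74 stood at 891 CPM against 14.7 (60.7, 56.9 to 64.8), H2-Aa at 208 against 6.30 (33.0, 29.6 to 36.8), H2-Ab1 at 165 against 4.24 (38.8, 34.1 to 44.2) and H2-Eb1 at 156 against 4.73 (32.9, 28.98 to 37.3). Their transactivator Ciita had 31 UMIs in 10.4% of the cells and a ratio of 36.6. At least 3 UMIs of H2-Aa, H2-Ab1 and H2-Eb1 together were found in 136 of the 250 cells, or 54.4% (48.0 to 60.7), against 1.35% of the comparison keratinocytes and 8.29% of the keratinocytes with 1 or 2 of the 5 genes. After thinning to 3000 UMIs, 51.2% and 4.67% of the cells kept at least 1 UMI. The cells differed widely among themselves, since 72 of the 250 held no such UMI and 80 held 10 or more.

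Among chemokines, cytokines and surface ligands the picture was mixed. Of the 13 chemokines other than Cxcl9 that could be called, 7 were higher, including Cxcl10 with 302 CPM against 11.2 (26.9, 24.7 to 29.3) and Ccl2 with 113 against 1.84, and Cxcl16, which binds CXCR6 of T cells, had a ratio of 1.58. Cd274, which encodes the inhibitory ligand PD-L1, stood at 75.5 CPM against 2.41 (31.4, 26.2 to 37.6) and was detected in 38.0% of the cells against 2.25% of the comparison keratinocytes. Tnfsf10, the death ligand TRAIL, stood at 45.7 CPM against 2.08, Lgals9 one of 4.28, the adhesion molecule Icam1 one of 2.10 and Il18bp, the interleukin 18 antagonist, one of 13.4. Il15, a cytokine that sustains CD8 T cells, had 10 UMIs (ratio 1.19, 0.562 to 2.25), and its presenting receptor Il15ra had a ratio of 2.04 (1.82 to 2.28).

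Of the cell death genes, 7 of 19 were higher. Zbp1, a nucleic acid sensor that can engage RIPK3, stood at 78.1 CPM against 0.767 (102, 77.8 to 135) in 56.0% of the cells, and Mlkl, the executioner of necroptosis, at 14.2 against 0.755 (18.8, 13.0 to 27.2). Ripk1, the kinase on which the study centred, stood at 41.0 CPM against 41.2 (0.993, 0.848 to 1.16). That ratio compares 2 classes of cells within AA. The paper reported more Ripk1 in AA than in control mice, a different contrast that is not given here. Ackr3, a scavenging receptor for CXCL12, stood at 128 CPM against 69.6 (1.84, 1.69 to 2.01), and Cxcr4 had 2 UMIs. Cxcl12 itself stood at 39.1 against 22.3 (1.75, 1.49 to 2.06), but 1 cell held 38 of its 165 UMIs. It was detected in 15.6% (11.3 to 20.7) of the cells and 13.1% (12.2 to 13.9) of the comparison keratinocytes, and these intervals overlapped.

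In AA, Psmb9 and B2m stood higher with each further one of the 5 genes detected, both below and above the limit of the rule. The keratinocytes with 0, 1, 2, 3, 4 and 5 of the genes numbered 6225, 1347, 354, 139, 96 and 15. Across them Psmb9 stood at 87.1, 131, 231, 370, 488 and 627 CPM. B2m went from 1149.6 CPM over 1303, 1793, 2121 and 2704 to 3058. Just inside the rule, at 3 genes, Cd74 stood at 621 CPM, and just outside it, at 2 genes, at 241. At the keratin limit, the 11 interferon-responding cells with 10 to 29 UMIs of Krt5 and Krt14 had 219 CPM of Cd74, and the 15 cells under 10 that otherwise met the rule had 437. Not every gene followed this order. H2-Aa stood at 277 CPM (253 to 303) at 4 genes and 179 (138 to 228) at 5, and Ackr3 at 125 (109 to 143) and 46.7 (27.2 to 74.8). Zbp1 stood at 94.1 CPM at 4 genes and 82.5 at 5, with overlapping intervals, and Cxcl10 at 58.4 at 2 genes, 50.3 at 3 and 2750 at 5. Krt15, a keratin of basal and bulge cells, went from 3476 CPM at 0 genes to 987 at 5. The order was made from the same 5 genes that selected the cells, so it describes the cells and supports nothing. A cell of greater depth more readily shows several of the genes, and the part of depth in this order was not tested.

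**Figure D3:**
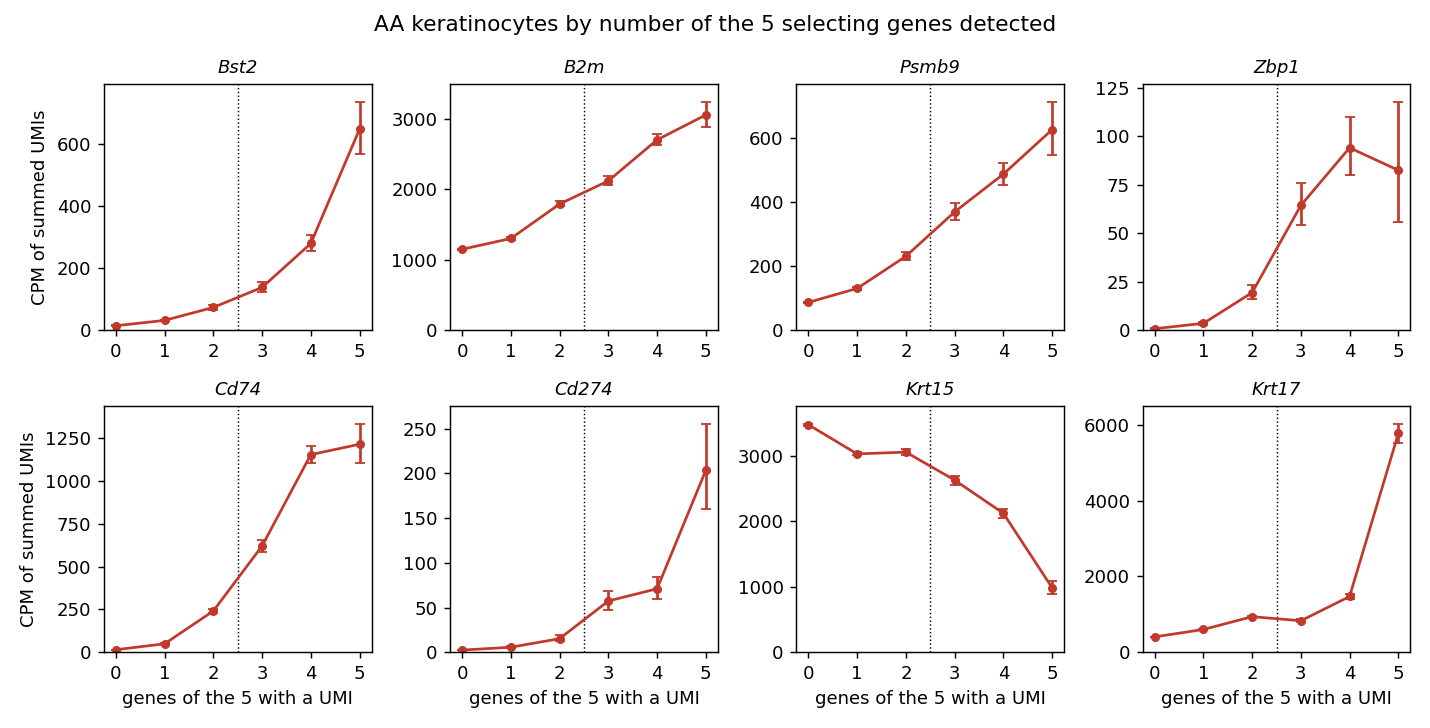
CPM of summed UMIs (y axes, linear from 0) of 8 genes in AA keratinocytes that had a UMI in 0 to 5 of the 5 selecting genes (x axes), with exact 95% Poisson intervals as whiskers. The dotted line marks the limit of the rule; B2m and Psmb9 were higher at each step, and Krt15 was lowest and Krt17 highest at 5 genes.

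In AA the interferon-responding cells were not spread evenly over marker classes of the Krt5/Krt14 keratinocytes. Epithelial cells under the Krt5/Krt14 limit took no part. Classes of keratinocytes were made from summed markers of at least 10 UMIs, they overlap, and they were chosen with the values known. In AA, 80.0% of the interferon-responding cells carried at least 10 UMIs of the basal and bulge keratin Krt15, beside 78.9% of the comparison keratinocytes. The cells made up 8.49% (5.40 to 12.6) of the keratinocytes with the upper follicle genes Krt79 and Cst6 against 2.88% of the others, 5.75% (4.43 to 7.33) of those with Krt17 against 2.66%, 9.74% (6.46 to 13.9) of those with Sox9 against 2.83%, and 8.35% (6.03 to 11.2) of those with the stress keratins Krt6a and Krt16 against 2.73%. They made up 1.01% (0.372 to 2.19) of the keratinocytes with inner root sheath keratins against 3.22%. None of the 147 with the matrix genes Msx2 and Krt35 was interferon-responding, which allows a share of up to 2.48%. The median depth of these last 2 classes, 27033.5 and 29075 UMIs, was above that of the others. Cells with the cycling genes Mki67 and Top2a did not stand apart, with 2.94% against 3.07%. After thinning to 3000 UMIs the share in the upper follicle class was 1.54% against 0.884%, on 4 cells, and that in the class with the suprabasal keratins Krt1 and Krt10 was 0.576% against 0.954%, from 3.26% against 3.03% before thinning. The thinned shares were 4.12% against 0.795% for Sox9, 3.55% against 0.738% for the stress keratins and 1.89% against 0.756% for Krt17. For the inner root sheath the thinned share was 0.168% against 0.964%, on 1 cell.

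Levels of the marker genes restate this distribution, since the classes were made from UMIs of the same genes in the same cells. Krt17 stood at 1519 CPM in the interferon-responding cells of AA against 405 in the comparison keratinocytes (3.75, 3.65 to 3.85), Krt79 at 366 against 94.0 (3.89, 3.68 to 4.11) and Sox9, a transcription factor of the outer root sheath, at 280 against 62.1 (4.52, 4.24 to 4.81). Krt6a had a ratio of 12.7, with 45.8% of its UMIs in the 17 cells with at least 10 Cxcl9 UMIs. Krt16 had a ratio of 1.91. Of 10 genes of the hair matrix, inner root sheath and shaft, 8 were lower, among them Krt25 with 32.7 CPM against 137 (0.239, 0.200 to 0.282), Krt35 (0.134, 0.0780 to 0.215) and Msx2 (0.189, 0.130 to 0.266). Krt71 was not called (0.606), and Shh was higher, with 86.2% of its UMIs in 1 cell. None of the 7 basal genes that the rule did not use was called, and Col17a1, a hemidesmosomal collagen, had a ratio of 0.976 (0.944 to 1.01). Summed, the 7 genes stood lower, at 5226 CPM (5157 to 5295) against 6794 (6777 to 6812), and 1 of the 7 had a ratio above 1. Krt15 had a median per cell of 21.3 UMIs per 10000 against 35.6 in the comparison keratinocytes. Genes that respond to tissue dissociation, such as Fos and Atf3, were also not called (0 of 10, median ratio 1.02).

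**Figure D4:**
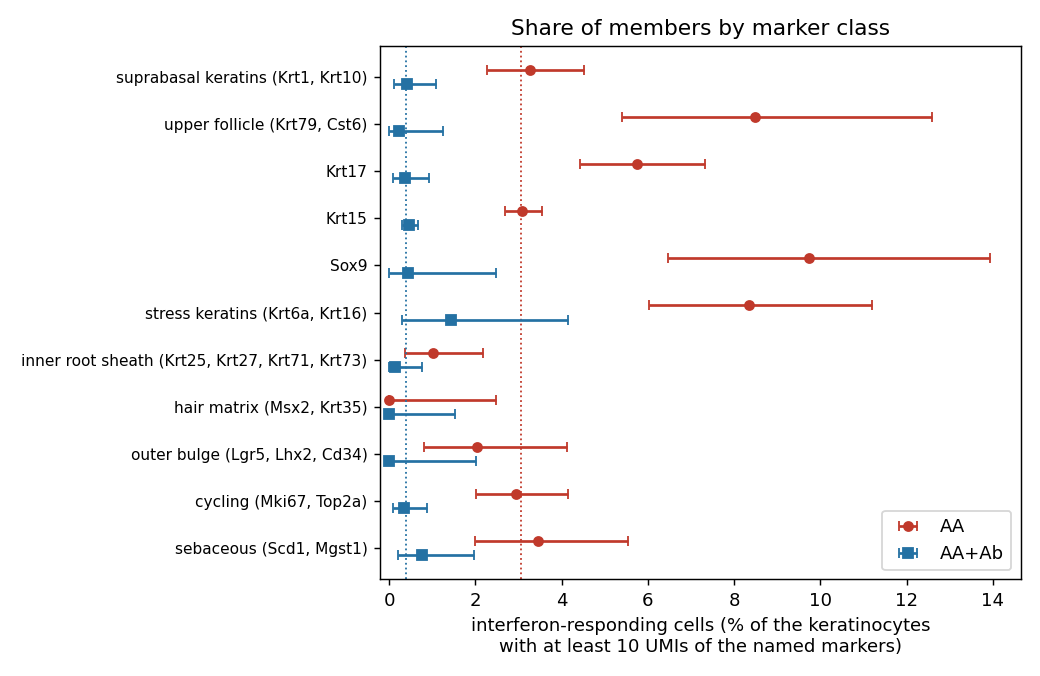
Percent of interferon-responding cells (x axis) among keratinocytes with at least 10 UMIs of the markers named on the y axis, in AA (circles) and AA+Ab (squares), with exact 95% Clopper-Pearson intervals; dotted lines mark the share over all keratinocytes of each library. In AA the classes with Sox9, upper follicle and stress keratin markers lie above the line and that of the inner root sheath below it.

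In the 29 interferon-responding cells of AA+Ab, Igtp, Bst2, B2m and Psmb9 also stood above the comparison keratinocytes. Against the comparison keratinocytes of that library, 9.13% of 16083 genes were higher and 7.44% lower, but 1 UMI in the sum of the 29 cells is about 2 CPM, and where at least 5 UMIs were expected in the smaller sum these shares were 1.94% and 9.02% of 8360 genes. Under that stricter limit no GTPase could be called, and 7 of 7 antiviral genes and 14 of 19 genes of MHC class I presentation were higher, with none lower. With at least 20 UMIs over both sums, 8 of 8 GTPases, 17 of 21 antiviral genes and 16 of 22 genes of MHC class I presentation were higher. Cmpk2, Ifit2 and Trim30a were among the genes with no UMI in the 29 cells. Igtp had a ratio of 55.2 (38.1 to 78.6), Bst2 one of 21.8 (17.8 to 26.4), B2m one of 2.29 (2.16 to 2.42) and Psmb9 one of 5.70 (4.97 to 6.52). For B2m and Psmb9 the levels in the interferon-responding cells of AA+Ab were 1.04 (0.976 to 1.10) and 1.02 (0.881 to 1.17) times those of AA.

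Genes of MHC class II stood lower in the interferon-responding cells of AA+Ab than in those of AA, and genes of MHC class I presentation stood close. Between the cells of AA+Ab and AA, 3.79% of 10448 genes were higher and 12.2% lower, with a median ratio of 0.931 (1.84% and 10.6% of 8315 genes with at least 5 UMIs expected). With 1 UMI in each sum as the limit the balance turned, to 1407 genes higher and 1268 lower. Of the lists, 0 of 21 genes of MHC class I presentation and 4 of 7 of MHC class II were lower. H2-Aa stood at 34.3 CPM in AA+Ab and 208 in AA (0.165, 0.0956 to 0.266), H2-Eb1 at 14.1 and 156 (0.0908, 0.0363 to 0.188), and Cd74 at 272 and 891 (0.306, 0.255 to 0.363). In AA+Ab, 1 cell held 62.2% of the UMIs of Cd74, and 1 cell held 76.9% of those of H2-Ab1. At least 3 class II UMIs were found in 3 of 29 cells, or 10.3% (2.19 to 27.4), against 54.4% in AA, and the intervals did not overlap. After thinning the shares were 17.2% (5.85 to 35.8) and 51.2% (44.8 to 57.5). Cd274 was lower in level, at 30.3 CPM against 75.5 (0.401, 0.222 to 0.671), while the share of cells with a UMI, 34.5% (17.9 to 54.3), overlapped that in AA.

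Further genes had few UMIs in AA+Ab, where all UMIs of the 29 cells summed to 495812, against 4223491 in the 250 cells of AA. Ifit3, Rsad2 and Gbp8 had no UMI in the 29 cells, against 122, 139 and 78 UMIs in AA, and Ccl8 had 1 against 232. These raw counts are not scaled to the 2 sums. A count of 0 in 29 cells allows a share of up to 11.9% of the cells. Krt17 stood at 0.337 times (0.296 to 0.382) and Krt79 at 0.0552 times (0.0264 to 0.102) the level in AA. At least 10 UMIs of Krt15 were carried by 93.1% of the cells (77.2 to 99.2), beside 80.0% (74.5 to 84.8) in AA, and the intervals overlapped. Among the comparison keratinocytes of AA+Ab the share was 78.6%. In AA+Ab, 1 of 441 keratinocytes with upper follicle genes was interferon-responding, or 0.227% (0.00574 to 1.26), an interval that held the 0.397% over all its keratinocytes. In AA it was 22 of 259, or 8.49% (5.40 to 12.6), beside 3.06% over all keratinocytes. Cxcl10 stood higher in AA+Ab than in AA, with 551 CPM against 302 (1.82, 1.59 to 2.08), but 54.2% of its UMIs in AA+Ab came from 1 cell. The deepest of the 29 cells, with 52165 UMIs or 10.5% of the total, held 95.7% of the UMIs of Krt10, 89.5% of those of Krt1 and 85.5% of those of Fabp5, so that these differentiation genes describe that cell.

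**Figure D5:**
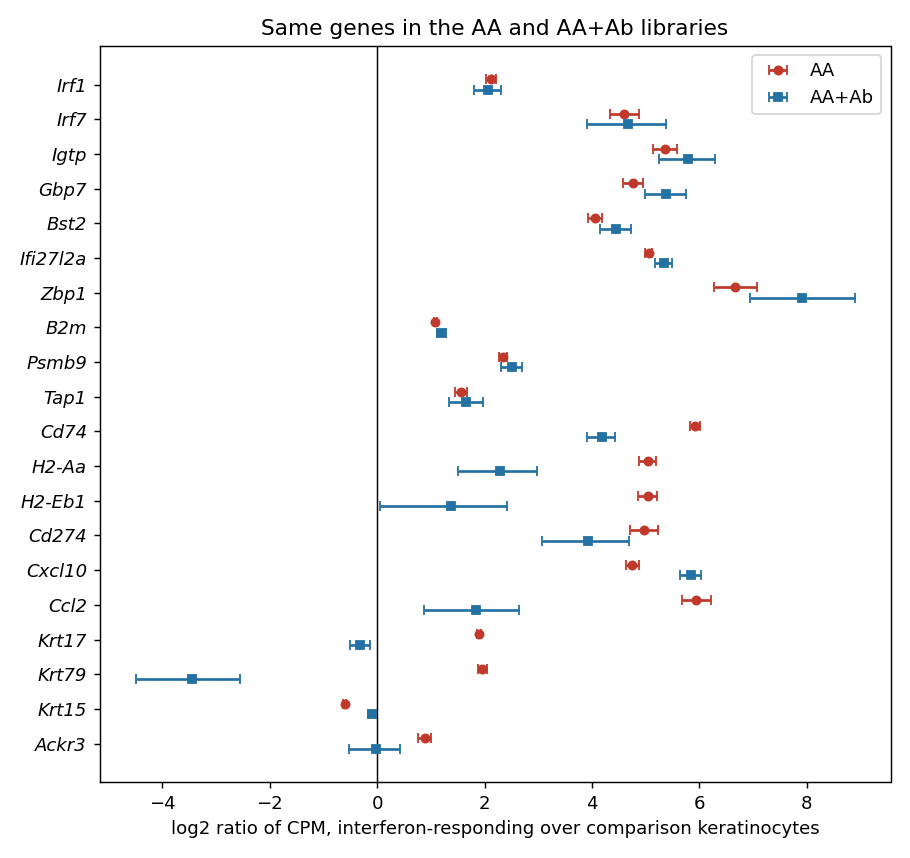
Log2 ratio of CPM (x axis) between interferon-responding and comparison keratinocytes for 20 genes (y axis) in AA (circles, 250 cells) and AA+Ab (squares, 29 cells), with exact 95% intervals of counting error as whiskers. Points of the 2 libraries lie close for Irf1, B2m, Psmb9 and Tap1 and apart for Cd74, H2-Aa, H2-Eb1, Ccl2, Krt17 and Krt79.

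The comparison keratinocytes, chosen to lack the 5 genes, also differed between libraries in other interferon-induced genes. Igtp was 2.14 times (1.70 to 2.71), Ifi27l2a 1.91 times (1.79 to 2.03) and B2m 1.28 times (1.27 to 1.29) the level of Neg in AA, and in AA+Ab Igtp was 0.535 times (0.432 to 0.660) and Ifi27l2a 0.606 times (0.572 to 0.642) the level of AA. B2m was 0.962 times (0.954 to 0.971), and Irf1 was higher, at 1.14 times (1.10 to 1.18). Cd74 stood at 13.2, 14.7 and 14.99 CPM and Cxcl10 at 13.1, 11.2 and 9.60. Whether these differences exceed those between mice was not tested.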

How the data were processed

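The authors made 10x libraries from pooled dorsal skin and deposited, per library, a matrix of raw UMI counts made with Cell Ranger 7.2.0 on mm10, as the submitters' processing notes state. The libraries held 6965 (Neg), 10879 (AA) and 10507 (AA+Ab) barcodes with 121289374, 137290217 and 141998364 UMIs. Barcodes with at most 10% mitochondrial UMIs and at least 200 genes were kept (6582, 10433 and 9832). Between 17 and 28 barcodes were shared by pairs of libraries, none of them an interferon-responding cell. UMIs were summed over cells and scaled to CPM (numpy 2.4.6, pandas 2.3.3). Ratios carry exact conditional binomial intervals and shares exact Clopper-Pearson intervals at 95% (scipy 1.17.1). In ratios a count of 0 was given a limit of 3 counts. No p-value was computed, since each group is 1 library. The script was tested on simulated counts. Members, the 23 gene lists (297 genes, 5 of them not in the files), markers and classes were chosen with earlier results of these data known. Named genes were those of the lists, the 10 highest (at least 50 UMIs over both sums) and 10 lowest (at least 20 in each) ratios in AA with the same sign in AA+Ab, and the 5 highest and 5 lowest between AA+Ab and AA (at least 50 in each). Alternatives changed the filters on cells and genes, the number of the 5 genes, doublets, immune cells, depth and scaling. Doublets were marked but kept. Promoter sequences are from RefSeq (GRCm38.p6); several genes, Iigp1 and Cd74 among them, had no entry or were not used. Some genes are not reported here.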

Additional observations from a re-analysis of the deposited data

Results flagged for a closer look

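For 4 genes the log2 ratio of interferon-responding to comparison keratinocytes had opposite signs in AA and AA+Ab, and the difference was not tested. Krt79, a keratin of the upper follicle, had a log2 ratio of 1.96 in AA and -3.44 in AA+Ab, with 1544 and 10 UMIs. Cst6, a cysteine protease inhibitor of the upper follicle, had 2.15 and -2.94, and 1 cell held 48.7% of its 2612 UMIs in AA. Dct, a melanocyte gene, had 2.64 and -1.88, with 95.1% of its UMIs in AA in 1 cell. S100a9, an alarmin, had -1.43 on 4 UMIs in AA and 2.37 in AA+Ab, where all 10 UMIs lay in 1 cell.

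Barcodes with a Ptprc UMI took no part in the comparisons. Among those with at least 10 UMIs of Krt5 and Krt14, 10 of 138 in AA held at least 3 of the 5 genes, above the 1 of 120 in Neg, and there were 2 of 135 in AA+Ab. What these barcodes were was not tested.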

How the results depend on the processing

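No paired analysis was possible because each group is 1 library. The log2 ratio of the share of interferon-responding cells, 4.70 for AA over Neg and -2.95 for AA+Ab over AA, stayed within its interval under the alternatives tried except when 2 of the 5 genes sufficed (3.38 and -2.32), but the interval of AA over Neg is wide, and the value reached 5.66 without cells of immune markers (2 cells in Neg) and 5.51 after thinning (1 cell in Neg). Counts of genes past 2-fold depended on the filter on low counts. In AA the count was 2135, and it was 1314 against comparison keratinocytes matched on UMIs, 3280 with 1 UMI in each sum and 1141 with at least 5 UMIs expected in the smaller sum, a filter chosen after seeing the data. With that last filter the 2664 genes of AA+Ab became 916 and the 1672 between AA+Ab and AA became 1031, and 1 UMI in each sum gave 2675 for the latter. The balance of genes higher and lower also moved. In AA it was 1174 and 961, and it turned to 898 and 1461 without cells of immune markers, 673 and 953 after thinning, 907 and 1058 without cells of stromal markers and 541 and 600 under the filter on expected UMIs. In AA+Ab, 1468 and 1196 became 162 and 754 under that filter and 1402 and 1487 without doublets. Between AA+Ab and AA, 396 and 1276 became 1407 and 1268 with 1 UMI in each sum.

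Of 2030 values of single genes under alternatives, 1584 stayed within the reported interval, 426 left it with the same sign and 20 changed sign. With cells that carry immune markers left out, the log2 ratio of Dct in AA was -1.60, those of Krt1, Krt10 and Fabp5 in AA+Ab were -0.85, -2.39 and -0.55, and between AA+Ab and AA those of Krt1, Krt10 and Dct were -1.58, -2.51 and 0.86. With cells of stromal markers left out (chosen after seeing the data), Dct was -0.57 in AA and 0.44 between the libraries. With 4 of the 5 genes required, Krt1, Krt10 and Fabp5 were -2.31, -3.63 and -0.59 in AA+Ab, and Krt1, Krt10, Krt25 and Fabp5 were -1.82, -2.27, 0.17 and -0.32 between AA+Ab and AA. With every cell thinned to 3000 UMIs, Irf9 was -0.18 in AA+Ab on 1 UMI, and Socs1, Krt1 and Krt25 were 0.11, -0.28 and 0.37 between AA+Ab and AA. The causes were not tested. Ratios of genes with under 20 UMIs in AA+Ab are limited by depth.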

Other observations

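The genes with the largest ratios in AA by the rule for named genes held, beside Ubd, 3 that belong to none of the lists: Olfr56 (116, 63.7 to 227), which overlaps Ifi47 on the same strand, Apol10b (114, 57.9 to 251) and Apol9a (111, 77.3 to 164). Apol9a was detected in 43.6% of the interferon-responding cells. The genes with the smallest ratios included Mt4 (0.176, 0.145 to 0.211), Tmtc1 (0.184), Aldh1a3 (0.210) and Sox5 (0.285), and Aldh1a3 had no UMI in the 29 cells of AA+Ab.

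Between the interferon-responding cells of AA+Ab and AA, the heat shock gene Hspa1a was among the lowest (0.248, 0.189 to 0.319), and it also stood lower in the comparison keratinocytes, at 248 CPM in AA+Ab and 494 in AA (0.502, 0.494 to 0.510). Dennd2c (0.350) and Pcdh7 (0.355) were the next lowest after Cd74 and Krt17. Of the 5 highest, Cstdc5 (19.7), 2610528A11Rik (9.61), Ddr2 (9.99), Gadd45g (5.42) and Fabp5 (5.25), each had between 62.2% and 90.2% of its UMIs in 1 cell.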
